A study of Mus musculus with 16 samples.

Results

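The comparison described here set bone marrow-derived macrophages grown in GM-CSF against those grown in M-CSF, both on tissue culture-treated (TC) dishes and both challenged with LPS, and read it across all expressed genes. Its members were chosen from the sample labels alone: 2 libraries labelled GM-TC-LPS and 2 labelled M-TC-LPS, which are 4 of the 16 libraries of the series. The series crossed growth factor, dish (TC or untreated noTC) and LPS in 8 groups of 2 libraries, and measured polyadenylated RNA by sequencing. All groups came from bone marrow of C57BL/6J mice aged 8 weeks (male per the study's methods), and all were cultured for 7 days. GM-BMDMs received GM-CSF at 20 ng/ml and were seeded at 1000000 cells per ml, and M-BMDMs received M-CSF at 50 ng/ml and were seeded at 500000 cells per ml. Thus the growth factor, its dose and the seeding density changed together and cannot be told apart. GM-TC-LPS and M-TC-LPS cells were given LPS at 100 ng/ml for 3 h, while the GM-TC and M-TC libraries used below for comparison received vehicle without LPS (per the study's methods) and are called steady state, and GM-noTC-LPS and M-noTC-LPS had LPS on the untreated dish.

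M-CSF signals through the receptor tyrosine kinase encoded by Csf1r and is present in the body at rest, whereas GM-CSF signals through a JAK2- and STAT5-coupled receptor made of the chains encoded by Csf2ra and Csf2rb and is produced mostly in inflammation and in the lung. LPS, a component of the outer membrane of Gram-negative bacteria, is sensed by TLR4 with its partners MD-2 and CD14. It drives an early NF-kB wave of cytokines and chemokines and, through TRIF, IRF3 and interferon-beta, a later wave of interferon stimulated genes (ISGs).

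Expression was measured in expected counts per gene, and levels are given as CPM, the count of a gene per 1000000 counts of the TMM-scaled library. The 4 libraries held between 22129711 and 26916535 counts. A gene was called differentially expressed (DEG) at a fold change above 2 and a BH-adjusted p under 0.05 in edgeR's quasi-likelihood test over 12514 genes. All 12 macrophage identity markers were detected in both groups, with summed levels of 51135 to 52018 CPM in GM-TC-LPS and 37758 to 38459 CPM in M-TC-LPS. Of these markers, 1 was a DEG higher and 5 were DEGs lower in GM-TC-LPS, beside 14.9% and 10.1% of all genes. Their median log2 fold change was -0.70. Ptprc, the pan-leukocyte marker CD45, stood at 1518 and 1550.0 CPM against 1516 and 1626 CPM and did not pass the test. The lysozyme gene Lyz2 was at 40381 and 39199.5 CPM in GM-TC-LPS and 21086 and 20482 CPM in M-TC-LPS. It made up most of the summed marker level in each library. For genes at 100 CPM or more somewhere in the series, the lowest level as a share of the mean of the other groups was 1.23% and 1.87% in the GM-TC-LPS libraries and 0.535% and 0.474% in the M-TC-LPS libraries, against 0 to 0.0208% in the 4 steady state TC libraries. Of the DEGs, 186 of those higher and 21 of those lower in GM-TC-LPS had their low group at or under 1% of the other libraries, and the part of such shared low levels in their fold changes was not tested. Subtracting that lowest share left 1895 DEGs higher and 1259 lower.

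A large share of the genes expressed after LPS differed between the growth factors. Comparing GM-TC-LPS with M-TC-LPS, 1866 genes (14.9% of those tested) were DEGs with higher and 1258 (10.1%) with lower expression in GM-BMDMs. The median log2 fold change of all genes tested was 0.03. At any fold, 4238 genes passed the adjusted threshold as higher and 4120 as lower, together 66.8%. Large changes lay mostly on the GM side, with 1044 genes more than 4-fold higher against 378 lower and 435 genes more than 16-fold higher against 71 lower. These fold counts include genes at 0 counts in 1 group, whose fitted folds depend on the prior count. The surplus on the GM side lay among weakly expressed genes. Below 10 CPM in the higher group, 1150 DEGs were higher and 418 lower in GM-BMDMs, while at 10 CPM or more 716 were higher and 840 lower. The groups did not overlap for 82.7% of all genes tested, and 9 DEGs had overlapping libraries. With 2 libraries a group an exact permutation test of a single gene cannot go below a two-sided p of 0.333, so all p-values are from the fit, whose biological coefficient of variation was 4.75%. The study's figure legend calls the 2 libraries of a group biological replicates, but neither it nor the labels say whether they came from separate mice. The p-values thus measure only the spread between libraries of a group, estimated over all 16 libraries. In bulk RNA, fewer cells of a type and less RNA per cell cannot be told apart.

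**Figure D1:**
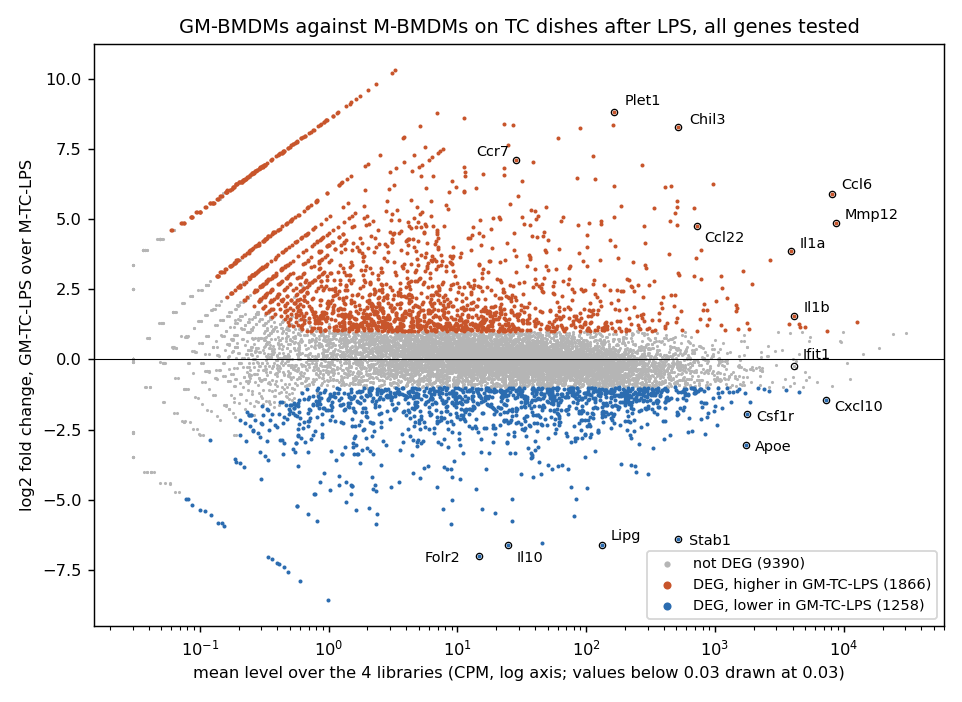
Each point is 1 of 12514 genes, with the mean CPM of the 4 libraries on a log axis and the log2 fold change of GM-TC-LPS over M-TC-LPS. Orange and blue mark the 1866 and 1258 DEGs, the straight diagonals at low level are genes at or near 0 counts in 1 group, and circled genes are named in the text.

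The 10 genes with the largest folds on the GM side among well expressed DEGs were Plet1, Ccl1, Wfdc21, Rnase2a, Ear6, Rbp4, Cldn1, Chil3, Ccn3 and Car4. Plet1, a surface protein of placental and epithelial cells, was at 313 and 340.3 CPM in the GM-TC-LPS libraries and at 0.640 and 0.814 CPM in M-TC-LPS, a log2 fold change of 8.82 ± 0.13 (n = 2 per group). Here and below, the value after ± is the log2 fold change divided by the square root of the F statistic of its test. It stands in for a standard error and is too small where a group holds few counts. Chil3, the chitinase-like protein Ym1, was at 995 and 1075 CPM against 3.05 and 3.72 CPM (8.26 ± 0.13). Car4, a membrane-bound carbonic anhydrase of alveolar macrophages, was at 114 and 128 CPM against 0.492 and 0.523 CPM. The retinol carrier Rbp4, the matricellular gene Ccn3 and the eosinophil-type ribonuclease gene Ear6 had log2 fold changes of 8.34, 8.23 and 8.34. Plet1, Chil3 and Car4 were thus abundant in both GM libraries and close to absent in both M libraries. Ccl1, the CCR8 ligand, the tight junction gene Cldn1, the antibacterial whey protein gene Wfdc21 and the ribonuclease gene Rnase2a had at most 3 counts per library in M-TC-LPS. Their ratios of normalised counts were 521 (exact 95% interval 93.2 to 20631) for Ccl1, 385 (exact 95% interval 68.7 to 15228) for Cldn1, 423 (exact 95% interval 117 to 3499.7) for Wfdc21 and 346 (exact 95% interval 148 to 1068) for Rnase2a, intervals that cover counting error only. Several of these folds depend on the few counts in the M libraries. Without M-TC-LPS replicate 1 or 2 Ear6 gave 9.73 or 7.74, and with the lowest shared level subtracted Plet1, Chil3, Rbp4, Ccn3, Ear6 and Car4 gave 10.55, 10.11, 12.42, 10.33, 9.84 and 8.80. Chil3, Ear6 and Rnase2a have near-identical relatives, so how their reads were divided among copies is uncertain.

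The 10 genes with the largest folds on the M side by the same rule began with Folr2, Il10, Lipg and Col18a1. Folr2, the folate receptor of resident macrophages, was at 0.155 and 0.279 CPM in GM-TC-LPS and 28.5 and 29.9 CPM in M-TC-LPS (-7.02 ± 0.26). The anti-inflammatory cytokine gene Il10 was at 0.465 and 0.511 CPM against 44.1 and 53.7 CPM (-6.63 ± 0.22), and the endothelial lipase gene Lipg at 2.79 and 2.55 CPM against 261 and 263 CPM (-6.62 ± 0.12). The scavenger receptor gene Stab1 was at 12.1 and 11.9 CPM against 1071 and 959.8 CPM (-6.40 ± 0.07), with an adjusted p of 2.1e-24 in edgeR. All 4 genes were barely detected or low in both GM libraries and clearly expressed in both M libraries. Col18a1, coding for a basement membrane collagen, the leukocyte adhesion molecule gene Sele, the phospholipid transporter gene Abcb4, the lectin gene Clec4a1, the NADPH oxidase gene Nox1 and Pcp4l1 followed with log2 fold changes between -5.35 and -6.54. Folr2 gave -8.53 with the shared level subtracted, and Sele -6.76 without GM-TC-LPS replicate 2.

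By absolute level, a few very abundant transcripts separated the groups. The elastase gene Mmp12 was at 17214 and 16325 CPM in GM-TC-LPS and 547 and 604 CPM in M-TC-LPS (4.86 ± 0.07), and the chemokine gene Ccl6 at 16306 and 15538 CPM against 259.7 and 282 CPM (5.88 ± 0.07). The lysosomal protease genes Ctsd and Ctss were higher in GM-BMDMs by 1.32 and 1.24 on the log2 scale. In the other direction Cxcl10, Cmpk2 and Apoe made the largest differences in mean CPM among DEGs, followed by Ccl3, Csf1r, Ptgs2, Marcksl1, Sqstm1, Mapkapk2 and Sdc4. Of these, the syndecan gene Sdc4 was at 351 and 332 CPM against 1737 and 1731 CPM (-2.35 ± 0.05). The mitochondrially encoded mRNAs, a group chosen after 3 of them had appeared among the most abundant differences, were all higher in GM-TC-LPS, 13 of 13 past the adjusted threshold and 9 of 13 DEGs, with a median log2 fold change of 1.10. They took 6.76% and 6.54% of counts in the GM-TC-LPS libraries and 3.24% and 3.35% in the M-TC-LPS libraries, and the part of this in other results was not tested.

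Of all genes tested, 14.9% were DEGs higher and 10.1% DEGs lower, and the counts of every list below are to be read beside these shares. Genes of the growth factor pathways differed in both directions. Of 19 tested members (of 20), 4 were DEGs with higher and 3 with lower expression in GM-BMDMs, near the 14.9% and 10.1% of all genes, so the counts set this list apart in neither direction. The shared receptor chain Csf2rb was at 1608 and 1677 CPM against 410.4 and 373 CPM (2.07 ± 0.06) and its mouse duplicate Csf2rb2 at 816 and 856 CPM against 263 and 245 CPM (1.72 ± 0.06). These duplicates are near-identical, so the division of reads between them is uncertain. The alpha chain gene Csf2ra was higher by 0.92, under the 2-fold threshold. The M-CSF receptor gene Csf1r went the other way, at 728 and 755 CPM in GM-TC-LPS and 2892 and 2771 CPM in M-TC-LPS (-1.93 ± 0.05). Of the STAT-induced inhibitors of cytokine signalling, Socs2 was at 34.7 and 34.6 CPM against 1.13 and 1.69 CPM (4.64 ± 0.16) and Cish at 203 and 210.1 CPM against 50.8 and 59.7 CPM (1.91 ± 0.07). Socs3, which restrains IL-6 and G-CSF receptors, was lower in GM-BMDMs, at 479 and 505 CPM against 1057 and 994 CPM (-1.06 ± 0.05). Stat3 was lower too (-1.04 ± 0.05).

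The promoters of Cish, of the chemokine gene Ccl17, which IL-4 and GM-CSF induce, and of Socs3 are shown because these genes moved apart, Cish and Ccl17 higher and Socs3 lower in GM-BMDMs, and each holds the STAT letters TTCNNNGAA, which read the same on both strands. The windows run from 250 bases before to 30 bases after the start site in RefSeq on GRCm38.p6, and the capitals mark the matches, which start at positions 1 and 12 for Cish, at -99 for Ccl17 and at -154 for Socs3, counted from the start site as 1.
Cish, chr9:107296409-107296688, plus strand: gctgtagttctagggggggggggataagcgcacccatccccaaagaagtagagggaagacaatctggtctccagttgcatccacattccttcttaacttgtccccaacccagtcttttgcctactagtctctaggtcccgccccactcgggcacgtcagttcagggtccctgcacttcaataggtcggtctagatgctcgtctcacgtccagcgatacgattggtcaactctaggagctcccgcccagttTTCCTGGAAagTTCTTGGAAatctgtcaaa
Ccl17, chr8:94810203-94810482, plus strand: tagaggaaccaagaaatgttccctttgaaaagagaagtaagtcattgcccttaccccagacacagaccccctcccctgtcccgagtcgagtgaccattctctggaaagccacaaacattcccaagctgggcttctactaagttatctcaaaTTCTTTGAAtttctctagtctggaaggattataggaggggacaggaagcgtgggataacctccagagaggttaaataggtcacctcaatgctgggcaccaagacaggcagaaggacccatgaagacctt
Socs3, chr11:117969337-117969616, minus strand: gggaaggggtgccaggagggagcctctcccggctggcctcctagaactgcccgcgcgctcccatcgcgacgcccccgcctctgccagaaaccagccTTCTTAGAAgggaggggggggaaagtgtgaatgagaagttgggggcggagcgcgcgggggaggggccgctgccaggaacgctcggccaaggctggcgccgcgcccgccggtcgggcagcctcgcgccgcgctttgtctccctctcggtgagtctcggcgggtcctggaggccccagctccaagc
Promoter windows of 300 bases were matched by symbol for 9905 of the genes tested, of which 8.35% held these letters. The share was 8.55% (121 of 1416) for DEGs higher in GM-BMDMs and 7.80% (77 of 987) for DEGs lower, so the letters were about as frequent in either direction as in all tested genes. The AP-1 letters TGANTCA, on either strand, were held by 9.32% of DEGs higher and 8.41% of DEGs lower against 6.50% of all. The PU.1 letters GAGGAAGT were held by 4.24%, 5.47% and 3.99%, the MAF half-site TGCTGAC by 5.16%, 4.36% and 4.45%, and the NF-kB letters GGGA, any 1 base and TTTCC by 0.636%, 1.32% and 0.545% of the same 3 sets. STAT matches shared bases with the ISG element named below in 14 windows and with AP-1 in 3 and NF-kB in 1, and AP-1 matches with the MAF half-site in 15 and PU.1 in 1. A match is a description of letters and not of binding.

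Transcription factors that mark macrophage and dendritic cell fate split evenly, with 8 DEGs higher and 8 lower in GM-BMDMs among 26 tested. Irf4, a factor needed by a subset of conventional dendritic cells, was at 80.2 and 76.8 CPM in GM-TC-LPS and 1.48 and 2.67 CPM in M-TC-LPS (5.27 ± 0.13). Zbtb46, a factor of conventional dendritic cells, was at 6.83 and 6.87 CPM against 0.197 and 0.232 CPM (4.97 ± 0.36), and Bhlhe40, a repressor of Il10, at 92.0 and 90.6 CPM against 6.10 and 6.97 CPM (3.81 ± 0.08). The macrophage factor Maf was at 29.4 and 32.6 CPM against 391 and 445 CPM (-3.75 ± 0.09). Id3, the interferon regulatory factor gene Irf8 and Spi1, coding for PU.1, had log2 fold changes of -5.35, -1.29 and -1.10. Pparg, the nuclear receptor that GM-CSF induces in alveolar macrophages, was at 10.1 and 11.4 CPM against 6.69 and 7.73 CPM, past the adjusted threshold at 0.59 ± 0.11 but no DEG.

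Most genes of dendritic cells and all tested genes of MHC class II were higher in GM-BMDMs. Of 20 dendritic cell genes tested (of 22), 15 were DEGs higher and none lower, beside 14.9% and 10.1% of all genes. The median log2 fold change was 3.10 against 0.03 for all genes. Under 2-fold, 3 members passed the adjusted threshold as lower, namely Clec10a (-0.69), Kmo (-0.60) and Relb (-0.51), and 2 did not pass. Flt3 and Epcam did not pass the expression filter and were not tested. Ccr7, the receptor that guides dendritic cells to lymph nodes, was at 53.3 and 58.8 CPM against 0.591 and 0.174 CPM (7.11 ± 0.19, and 8.29 without M-TC-LPS replicate 1). The integrin gene Itgax, coding for CD11c, was at 993 and 974 CPM against 21.4 and 24.5 CPM (5.43 ± 0.08). The CCR4 ligands Ccl22 and Ccl17 were at 1348 and 1469 CPM against 48.5 and 56.4 CPM (4.75 ± 0.08) and at 241 and 264 CPM against 8.47 and 9.41 CPM (4.82 ± 0.14). Dpp4, coding for CD26, had at most 3 counts per library in M-TC-LPS, and its count ratio was 96.8 (exact 95% interval 41.2 to 299). The M libraries were low in each of these genes, and the summed level of the list was 3057 to 3214 CPM in GM-TC-LPS and 307 CPM in both M-TC-LPS libraries.

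All 11 MHC class II genes tested were DEGs higher in GM-BMDMs, beside 14.9% of all genes, with a median of 2.65. No member overlapped between the groups, as was the case for 82.7% of all genes. Cd74, the invariant chain, was at 1861 and 1995 CPM against 346 and 317 CPM (2.54 ± 0.07), H2-Aa at 508 and 547 CPM against 83.5 and 83.7 CPM (2.66 ± 0.07) and H2-Eb1 at 232 and 244 CPM against 40.2 and 35.6 CPM (2.65 ± 0.08). The class II transactivator gene Ciita was at 42.7 and 44.8 CPM against 6.89 and 7.03 CPM (2.65 ± 0.11), and H2-DMb2, coding for a peptide loading chain, had the largest change (5.64 ± 0.28, and 4.90 or 6.89 without M-TC-LPS replicate 1 or 2). MHC class I and its peptide loading genes did not share this. None of 18 was a DEG higher and 2 were lower, the immunoproteasome subunit genes Psmb10 (-1.29 ± 0.07) and Psmb9 (-1.04 ± 0.08), and 14 of the 18 passed the adjusted threshold as lower beside 32.9% of all genes, with a median of -0.53. Several class I genes are near-identical copies, so their reads cannot be divided with certainty.

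Costimulatory ligands were mixed, with 6 DEGs higher and 4 lower among 16. The PD-1 ligand gene Pdcd1lg2 was at 19.3 and 16.5 CPM against 0.0984 and 0.349 CPM (6.35 ± 0.28, and 5.66 or 7.43 without M-TC-LPS replicate 1 or 2), the OX40 ligand gene Tnfsf4 at 162 and 164 CPM against 10.9 and 13.1 CPM (3.77 ± 0.10) and Cd80 at 178 and 190.3 CPM against 17.3 and 19.6 CPM (3.32 ± 0.07). Cd40, which receives T cell help, was lower at 266 and 283 CPM against 728 and 743 CPM (-1.42 ± 0.06), and so was Cd83 (-2.15 ± 0.07). Cd86 and Cd274, coding for PD-L1, passed the adjusted threshold but differed by only 0.47 and 0.38.

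**Figure D2:**
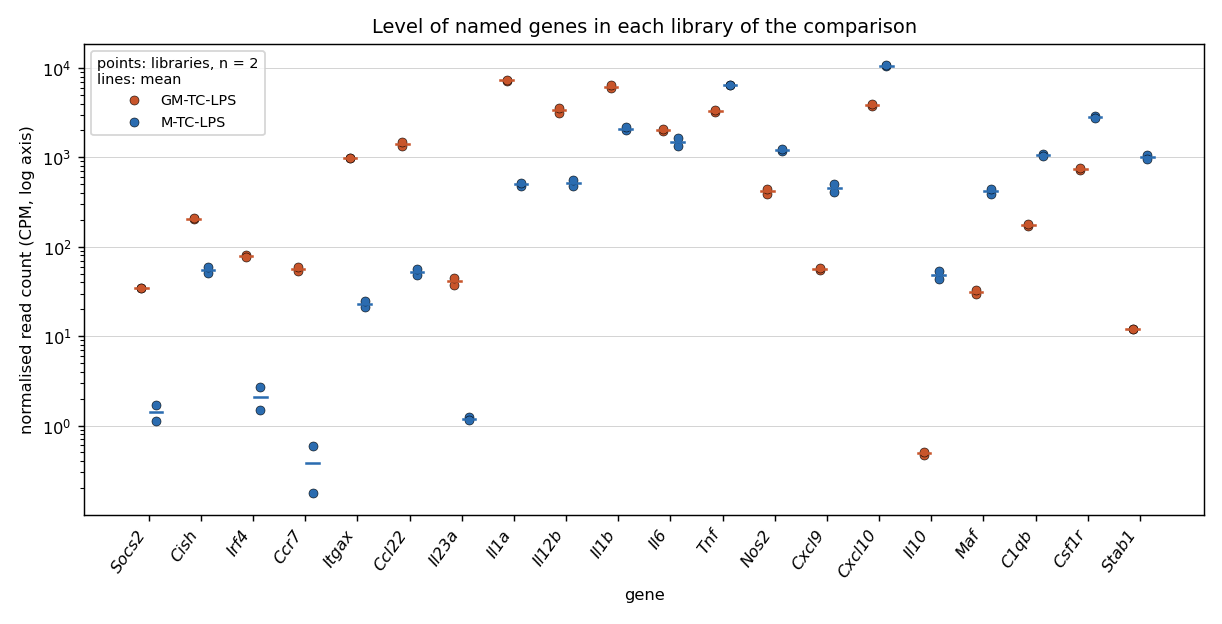
Normalised read count in CPM on a log axis for 20 named genes, with 1 point per library and a line at the mean of 2 libraries. The groups do not overlap in any of the 20 genes, and in Il6 (1951 and 2085 against 1345 and 1642 CPM) and Tnf they differ by less than 2-fold.

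Proinflammatory cytokine genes went in both directions. Of 24 proinflammatory cytokine genes tested, 13 were DEGs higher and 5 lower in GM-BMDMs, with a median of 1.25. The genes of IL-1 alpha and beta and of the subunits of IL-12 and IL-23 were on the GM side. Il1a was at 7132 and 7435 CPM against 483 and 522 CPM (3.86 ± 0.08), Il1b at 5946 and 6382 CPM against 2007 and 2197 CPM (1.55 ± 0.06) and the IL-36 gamma gene Il1f9 at 75.9 and 81.1 CPM against 3.35 and 4.30 CPM (4.37 ± 0.11). The p40 subunit gene Il12b, shared by IL-12 and IL-23, was at 3176 and 3536 CPM against 474 and 565 CPM (2.69 ± 0.08), the IL-23 subunit gene Il23a at 37.7 and 44.2 CPM against 1.23 and 1.16 CPM (5.09 ± 0.16) and the IL-12 subunit gene Il12a at 16.03 and 16.3 CPM against 6.89 and 7.85 CPM (1.14 ± 0.15). Thus both M libraries held about 1 CPM of Il23a while both GM libraries held close to 40 CPM. Il6 was higher by only 0.43 ± 0.08 and was no DEG. Tnf was on the M side at 3202 and 3357 CPM against 6405 and 6456 CPM (-0.97 ± 0.06), just under the 2-fold threshold. Ebi3, the beta chain of IL-27 and IL-35, the death ligand gene Tnfsf10 and Il18 were lower too, with log2 fold changes of -2.34, -2.32 and -2.20.

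The anti-inflammatory and feedback genes leaned to M-BMDMs, with 2 DEGs higher and 9 lower in GM-BMDMs among 27 and a median of -0.85. Besides Il10 and Socs3, the MAP kinase phosphatase gene Dusp2 was at 3.41 and 3.53 CPM against 62.1 and 56.6 CPM (-4.09 ± 0.14). Zfp36, whose product tristetraprolin degrades cytokine mRNAs, was at 119.6 and 119 CPM against 822 and 738 CPM (-2.71 ± 0.06). Il1rn and Il1r2, the IL-1 receptor antagonist and the IL-1 decoy receptor, were the DEGs on the GM side. Il1rn stood at 2263 and 2315 CPM against 647 and 649.9 CPM (1.82 ± 0.05), and Il1r2 had at most 3 counts per library in M-TC-LPS and a count ratio of 71.1 (exact 95% interval 19.4 to 593).

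CXC chemokines were divided, with 4 DEGs higher and 4 lower among 12 tested. Cxcl3 was at 1919 and 2054 CPM against 256 and 250.3 CPM (2.97 ± 0.08), and the platelet-type chemokines Ppbp and Pf4 and the epithelial chemokine Cxcl5 were higher by 4.12, 1.98 and 3.35. The CXCR3 ligands were lower. Cxcl10 was at 3758 and 3932 CPM against 10508 and 10701 CPM (-1.46 ± 0.06), Cxcl9 at 54.96 and 58.2 CPM against 411 and 499 CPM (-3.01 ± 0.09) and Cxcl11 at 4.50 and 5.53 CPM against 46.0 and 56.0 CPM (-3.34 ± 0.12). Cxcl1 did not pass the test (0.14 ± 0.09, adjusted p = 0.15 with edgeR, but 0.0046 when only the 4 libraries entered the fit), and Cxcl2, like Cxcl1 an attractant of neutrophils, was lower with -0.61 ± 0.07. Of 13 CC chemokines tested, 3 were DEGs higher, namely Ccl6, Ccl17 and Ccl22, and 6 lower. The monocyte chemokine Ccl12 was at 4.45 and 5.43 CPM against 80.0 and 86.7 CPM (-4.07 ± 0.12), Ccl7 at 314 and 309.8 CPM against 760.0 and 878 CPM (-1.39 ± 0.08), Ccl3 at 2196 and 2346 CPM against 4690.4 and 4889.9 CPM (-1.08 ± 0.06) and the membrane-bound fractalkine gene Cx3cl1 at 13.96 and 17.7 CPM against 105 and 92.8 CPM (-2.64 ± 0.10). Ccl2 was at 1180.3 and 1157 CPM against 1171 and 1269 CPM, within the spread of the libraries (-0.06 ± 0.07, adjusted p = 0.48 with edgeR). Among 14 receptors, 6 were DEGs higher and 3 lower, with Ccr7, Ccr1 (5.42) and Cmklr1 (2.86) on the GM side and the fractalkine receptor gene Cx3cr1 (-4.62) on the M side. Cxcr3, the receptor of Cxcl9, Cxcl10 and Cxcl11, was on the M side at 1.18 and 1.05 CPM, with at most 3 counts per library in GM-TC-LPS and a count ratio of M-TC-LPS to GM-TC-LPS of 45.8 (exact 95% interval 7.77 to 1849.6).

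Genes of LPS sensing that passed the adjusted threshold were mostly lower in GM-BMDMs. Of 31 receptor and signalling genes, 2 were DEGs higher and 6 lower, beside 14.9% and 10.1% of all genes, and 21 passed the adjusted threshold as lower, beside 32.9%, with a median of -0.45. Tlr4 was at 101 and 107 CPM against 183 and 197 CPM (-0.87 ± 0.07) and the co-receptor gene Cd14 at 1124 and 1202 CPM against 2184 and 2175 CPM (-0.91 ± 0.06). The TLR4 homologue gene Cd180, its partner Ly86 and the kinase gene Ikbke were lower, with log2 fold changes of -1.76, -1.80 and -1.39. Ly96, coding for MD-2, did not pass the test (-0.03 ± 0.13).

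The ISGs were mostly lower in GM-BMDMs by modest amounts. Of 56 members tested (of 58), none was a DEG higher and 21 were DEGs lower, and 51 passed the adjusted threshold as lower against 32.9% of all genes tested. Their median was -0.92. The exonuclease gene Isg20 was at 26.8 and 25.1 CPM against 129.7 and 140.0 CPM (-2.38 ± 0.08), the antiviral sensor gene Oas2 at 89.3 and 91.9 CPM against 322 and 325 CPM (-1.83 ± 0.07) and Irf7, the master factor of late interferon production, at 239 and 264 CPM against 866 and 894 CPM (-1.81 ± 0.08). The antiviral genes Cmpk2 and Rsad2 were lower, with log2 fold changes of -1.15 and -0.71. Ifit1 differed by only -0.23, Isg15 was at 411 and 416 CPM against 409 and 422 CPM (-0.01 ± 0.06, adjusted p = 0.94 with edgeR), and Ifnb1, the interferon-beta gene, was at 7.24 and 6.36 CPM against 6.15 and 7.26 CPM (0.02 ± 0.20, adjusted p = 0.93 with edgeR). The difference was thus uneven, from not detectable in Isg15 and Ifnb1 to the clear gap of Isg20. The guanylate binding proteins and immunity-related GTPases, which attack intracellular pathogens, counted 3 DEGs higher and 8 lower among 19, with Iigp1 (-2.57 ± 0.09), Gbp9 (-2.22 ± 0.08) and Tgtp2 (-1.67 ± 0.06) lowest. Ifit3 with Ifit3b, Tgtp2 and Gbp genes have near-identical neighbours, so the division of their reads is uncertain.

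The promoters of Ifit3 (-1.53 ± 0.06, at 397 and 402 CPM against 1092 and 1220.4 CPM) and Cxcl10 are shown because they hold the letters of the interferon stimulated response element, GAAA, any 2 bases and GAAA again on either strand, in capitals. The matches start at -156 and -122 in Ifit3 and at -213 in Cxcl10.
Ifit3, chr19:34583279-34583558, plus strand: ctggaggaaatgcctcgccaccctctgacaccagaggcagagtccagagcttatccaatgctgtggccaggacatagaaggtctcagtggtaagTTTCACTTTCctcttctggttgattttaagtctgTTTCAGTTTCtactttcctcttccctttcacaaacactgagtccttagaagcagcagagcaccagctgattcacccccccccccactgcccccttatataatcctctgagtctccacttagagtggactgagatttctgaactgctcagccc
Cxcl10, chr5:92348860-92349139, minus strand: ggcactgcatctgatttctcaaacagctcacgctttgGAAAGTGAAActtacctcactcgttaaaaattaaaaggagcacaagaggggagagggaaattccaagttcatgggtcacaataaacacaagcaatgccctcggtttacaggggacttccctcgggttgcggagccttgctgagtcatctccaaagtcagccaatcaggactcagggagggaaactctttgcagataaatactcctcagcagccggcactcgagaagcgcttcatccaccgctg
These letters were held by 8.31% (82 of 987) of the promoters of DEGs lower in GM-BMDMs, by 3.11% (44 of 1416) of DEGs higher and by 4.08% (404 of 9905) of all. Of the ISG list, 21 of 43 members with a promoter window held them.

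Metabolic genes of nitric oxide and arginine were split along the pathway. Arg1, which turns arginine to ornithine, was at 19.6 and 37.98 CPM against 1.03 and 0.814 CPM (4.95 ± 0.33), and its GM-TC-LPS libraries lay far apart. Arg1 gave 5.89 with the shared low level subtracted. The arginine transporter gene Slc7a2 was at 4869 and 5047 CPM against 403 and 453 CPM (3.53 ± 0.08) and the citrulline recycling gene Ass1 at 459 and 446 CPM against 96.1 and 98.1 CPM (2.22 ± 0.06). Nos2, the inducible nitric oxide synthase, went the other way at 393 and 439.7 CPM against 1185 and 1241 CPM (-1.54 ± 0.07), as did the prostaglandin synthase gene Ptgs2 at 1614 and 1706 CPM against 3382 and 3806 CPM (-1.11 ± 0.07). The itaconate enzyme gene Acod1 was lower but no DEG (-0.95 ± 0.04). Of 30 glycolysis and hypoxia genes, none was a DEG higher and Pfkfb3, the activator of phosphofructokinase, was the only DEG lower (-1.95 ± 0.06). Sterol and fatty acid genes counted 3 DEGs higher and 6 lower among 31, beside 14.9% and 10.1% of all genes, with the desaturase genes Scd1 (3.63 ± 0.06) and Scd2 (2.47 ± 0.09) on the GM side. Among 19 prostaglandin and leukotriene genes, Hpgds, the prostaglandin D synthase, was at 9.82 and 8.08 CPM against 119.7 and 123 CPM (-3.76 ± 0.08), and the leukotriene C4 synthase gene Ltc4s was higher by 1.71. Ptgis, the prostacyclin synthase, had 0 counts in both M-TC-LPS libraries. It was at least 26.9-fold higher in GM-TC-LPS, against a floor of 3 counts over the 2 M-TC-LPS libraries together.

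Genes known from M-CSF macrophages were for the most part lower in GM-BMDMs, with a median of -1.93. Among 29, 17 were DEGs lower and 7 higher, both above the 10.1% and 14.9% of all genes. The complement component genes C1qa, C1qb and C1qc had log2 fold changes of -2.16, -2.60 and -2.84, with C1qb at 169.6 and 181 CPM against 1088 and 1044 CPM. Apoe was at 371 and 376 CPM against 3166 and 3038 CPM (-3.05 ± 0.07), the efferocytosis bridge gene Gas6 at 27.7 and 29.8 CPM against 475 and 443 CPM (-3.998 ± 0.08), Adgre1, coding for F4/80, at 333 and 339.6 CPM against 1373 and 1430.3 CPM (-2.06 ± 0.05) and the high affinity Fc receptor gene Fcgr1 at 52.9 and 63.1 CPM against 375 and 384 CPM (-2.71 ± 0.08). Exceptions included lectins and a phagocytic receptor. Mgl2, coding for CD301b, was at 59.7 and 64.7 CPM against 0.591 and 0.930 CPM (6.37 ± 0.16, and 7.08 with the shared low level subtracted), the mannose receptor gene Mrc1 at 611 and 610.4 CPM against 175 and 164 CPM (1.85 ± 0.08) and Mertk at 197 and 203 CPM against 83.2 and 80.0 CPM (1.29 ± 0.07).

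Genes of PPAR-gamma and alveolar-type macrophages were mostly higher, with a median of 3.84. Of 20 tested (of 24), 13 were DEGs higher and none lower, beside 14.9% and 10.1% of all genes. Besides Chil3, Ear6 and Car4, the proton pump subunit gene Atp6v0d2 was at 981 and 964 CPM against 35.1 and 36.0 CPM (4.77 ± 0.06) and the oxidized LDL receptor gene Olr1 at 251 and 250.4 CPM against 8.42 and 7.96 CPM (4.93 ± 0.08). The fatty acid binding protein gene Fabp4 was at 82.4 and 79.7 CPM against 47.8 and 53.3 CPM (0.68 ± 0.07), under the 2-fold threshold. Phagocytic receptor and bridge genes were mixed, 10 DEGs higher and 5 lower among 27. Besides Olr1 on the GM side and Stab1 on the M side, the bridge protein gene Mfge8 was at 1484 and 1443 CPM against 98.9 and 96.6 CPM (3.90 ± 0.06) and the receptor tyrosine kinase gene Tyro3 was higher too (3.70 ± 0.18). Among Fc and C-type lectin receptors, Clec4n, coding for Dectin-2, was at 794 and 806 CPM against 10.3 and 12.4 CPM (6.14 ± 0.09), and the inhibitory lectin gene Clec12a at 30.4 and 33.5 CPM against 444 and 446 CPM (-3.80 ± 0.06).

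Matrix-degrading enzymes were mostly higher, with a median of 2.07. Among 19, 10 were DEGs higher and 2 lower, beside 14.9% and 10.1% of all genes. Besides Mmp12, the collagenase gene Mmp8, which is also stored in neutrophil granules, was at 646 and 668 CPM against 14.9 and 16.4 CPM (5.39 ± 0.07), Mmp19 at 330.3 and 312 CPM against 10.8 and 8.02 CPM (5.08 ± 0.09) and the gelatinase gene Mmp2 at 74.9 and 82.7 CPM against 2.07 and 2.96 CPM (4.99 ± 0.16). The collagenase gene Mmp13 was the reverse, at 611 and 598 CPM against 1466 and 1619.8 CPM (-1.35 ± 0.06). The matrix gene Fn1 was at 785 and 1000.1 CPM against 11.8 and 12.8 CPM (6.18 ± 0.14), while the integrin gene Itga4 was lower (-1.51) and osteopontin, Spp1, differed by only 0.19, a call lost without M-TC-LPS replicate 1 (adjusted p = 0.096 with edgeR). Of 21 complement genes, 4 were DEGs higher and 9 lower, C3 at 1017 and 1048 CPM against 2298 and 2435 CPM (-1.20 ± 0.08). Osteoclast genes counted 6 DEGs higher and 1 lower among 9, with the tartrate-resistant phosphatase gene Acp5 (4.74 ± 0.08), the fusion gene Dcstamp (5.01 ± 0.14) and the collagen protease gene Ctsk (3.73 ± 0.10) higher and the RANK gene Tnfrsf11a lower (-2.82 ± 0.06).

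Genes of mitosis were lower in GM-BMDMs, 25 DEGs of 34 against 1 higher, beside 10.1% and 14.9% of all genes. Their median was -1.31. The kinesin gene Cenpe was at 26.1 and 26.8 CPM against 159 and 181 CPM (-2.68 ± 0.08), the cyclin gene Ccnb2 at 8.89 and 8.64 CPM against 38.4 and 39.5 CPM (-2.15 ± 0.11) and the topoisomerase gene Top2a at 71.6 and 67.3 CPM against 213 and 218 CPM (-1.63 ± 0.06). The checkpoint kinase gene Bub1b was the exception at 49.2 and 47.5 CPM against 14.5 and 14.1 CPM (1.76 ± 0.08). Mki67, the proliferation marker Ki-67, did not pass the test at 803 and 851 CPM against 875 and 929 CPM (-0.13 ± 0.09, adjusted p = 0.22 with edgeR, but 0.037 with no expression filter). DNA replication genes moved less, 8 DEGs lower and 1 higher among 34 with a median of -0.53, led by Mcm10 at 10.5 and 10.1 CPM against 55.3 and 58.7 CPM (-2.46 ± 0.08).

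**Figure D3:**
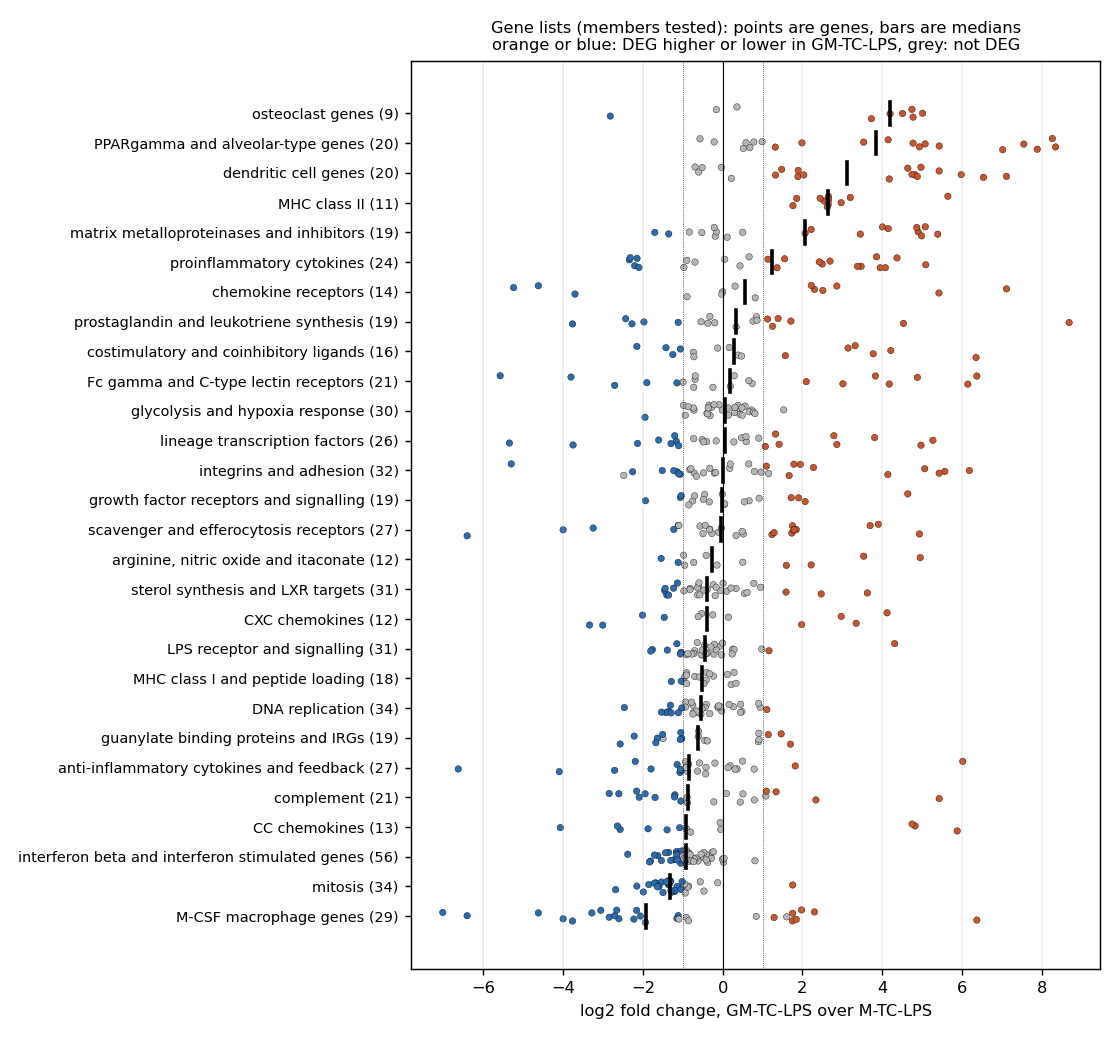
Log2 fold change of GM-TC-LPS over M-TC-LPS for the members tested of 28 gene lists, 1 point per gene, with a bar at each list's median. MHC class II, dendritic cell, alveolar-type and osteoclast genes lie mostly to the right, and mitosis genes, ISGs and M-CSF macrophage genes mostly to the left.

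Markers of other cells were measured beside these lists. Of 9 neutrophil markers tested (of 14), 6 were DEGs higher in GM-TC-LPS and 1 was lower. The summed level of the whole list was 679 to 712 CPM in GM-TC-LPS and 117 to 121 CPM in M-TC-LPS, mostly Mmp8 in the first and Csf3r in the second, and 4 of the 12 defining markers, namely Elane, Ly6g, Mpo and Retnlg, were at 0 in M-TC-LPS and none in GM-TC-LPS. The granule gene Ngp was at 12.2 and 17.1 CPM and S100a8 and S100a9 at 6.00 and 7.66 CPM and 5.84 and 6.22 CPM in GM-TC-LPS, all of them low in M-TC-LPS, whereas the G-CSF receptor gene Csf3r was at 5.38 and 8.08 CPM against 105 and 98.9 CPM. Mast cell and basophil markers summed to 98.0 to 98.9 CPM against 48.3 to 49.2 CPM, with 5 DEGs higher of 6 tested (of 13). Prss34 had 0 counts in M-TC-LPS and was at least 7.34-fold higher in GM-TC-LPS, and Cpa3 was at 1.396 and 1.72 CPM in GM-TC-LPS. Of the 6 defining markers, 4 (Fcer1a, Mcpt8, Ms4a2 and Prss34) were at 0 in M-TC-LPS. Those 6 held 178 counts over both GM-TC-LPS libraries and 5 over both M-TC-LPS libraries, so the sums came mostly from other members. Stromal markers summed to 44.9 to 56.6 CPM against 39.0 to 43.3 CPM, with 5 DEGs higher of 10, and endothelial markers to 313 CPM against 216 to 225 CPM, with 3 DEGs higher and 1 lower of 4. The stromal gene Dcn was at 3.72 and 0.975 CPM in GM-TC-LPS, and Col1a2 at 4.55 and 0.929 CPM against 0.591 and 0.988 CPM overlapped between the groups, and the DEG call of Col1a2 was lost without GM-TC-LPS replicate 1 or M-TC-LPS replicate 1 (log2 fold changes of 0.25 and 1.45). Sparc overlapped between the groups too. Without GM-TC-LPS replicate 1 the log2 fold changes of Sparc, Col5a2 and Dcn fell from 1.54, 2.02 and 4.06 to 0.30, 0.16 and 2.81. The groups did not overlap for 3 of the 10 stromal markers, beside 82.7% of all genes tested. Of the defining stromal markers Lum was at 0 in GM-TC-LPS, and of the endothelial ones Emcn and Tek were at 0 in M-TC-LPS. B cell, T and NK cell, erythroid, eosinophil and heart markers summed to at most 38.4, 13.5, 0.557, 3.30 and 0.872 CPM in any of the 4 libraries, with 3, 0, 1, 1 and 1 DEGs. Among their defining markers Cd3d, Cd3e, Gzma and Ncr1 of T and NK cells, Il5ra and Prg3 of eosinophils, Alas2 of erythroid cells and Actc1 and Myh6 of heart were at 0 in all 4 libraries. Their part in the results for the gene lists was not tested.

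The growth factor difference after LPS was set against that at steady state, which used other libraries. Heart muscle markers summed to 44.6 and 23.4 CPM in the GM-TC libraries and 62.0 and 36.4 CPM in the M-TC libraries. They summed to at most 0.872 CPM in every other library of the series. The lowest shared level named above also differed, at 0 to 0.0208% in the GM-TC and M-TC libraries. In the GM-TC-LPS and M-TC-LPS libraries it was 0.474% to 1.87%. The part of either difference in the comparison with steady state, including large steady state folds of weakly expressed genes, was not tested. Comparing GM-TC with M-TC, 1657 genes (13.2%) were DEGs higher and 1069 (8.54%) lower in GM-BMDMs, and 61.5% passed the adjusted threshold at any fold. Of these, 1141 higher genes were shared, which is 61.1% of the DEGs after LPS and 68.9% of those at steady state, and 675 lower genes were shared, 53.7% and 63.1%. Opposite calls were few, with 11 genes higher after LPS and lower at steady state and 31 genes the reverse. The difference itself changed with LPS for 2225 genes in the positive and 2920 in the negative direction (41.1%, interaction term in edgeR). That split turned to 4899 positive and 1307 negative when libraries were scaled by total count only, a scaling that moved the median interaction of all genes from -0.04 to 0.30. With the lowest shared level subtracted it was 2232 positive and 2887 negative.

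ISGs lay further apart before LPS than after it. At steady state 50 of 56 were DEGs lower in GM-BMDMs, against 21 after LPS, and the interaction was positive for 46 of 56 beside 17.8% of all genes tested, with a median of 1.01. Cxcl10 was at 0.353 and 0.685 CPM in GM-TC and 23.5 and 26.7 CPM in M-TC (log2 fold change of -5.53 before and -1.46 after LPS), an interaction of 4.07 ± 0.19 (adjusted p = 2.4e-13 with edgeR). Ifit1 was at 4.999 and 5.11 CPM in GM-TC and 96.2 and 98.8 CPM in M-TC, and reached 3719.6 and 3779 CPM in GM-TC-LPS and 4310.1 and 4496 CPM in M-TC-LPS, an interaction of 4.03 ± 0.09. Ifit3b, at 0.202 and 0.201 CPM against 17.4 and 17.3 CPM before LPS, had an interaction of 5.03 ± 0.27 and Isg15 of 3.66 ± 0.15. The M-BMDMs thus stood further above GM-BMDMs in these transcripts before LPS than after it.

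**Figure D4:**
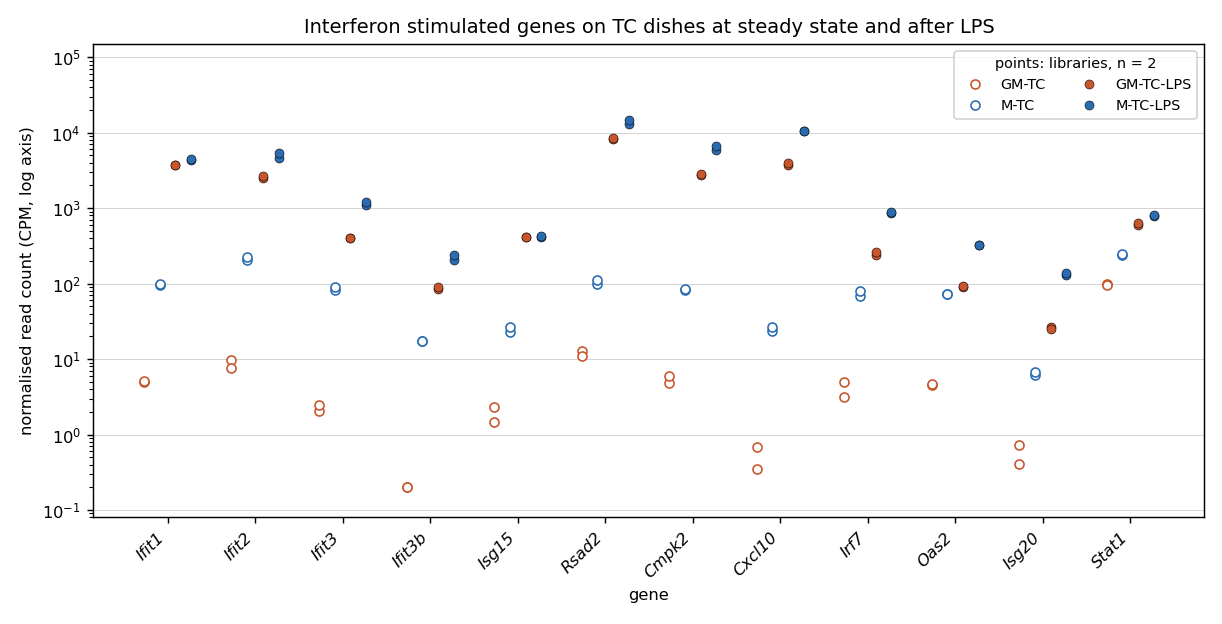
Normalised read count in CPM on a log axis for 12 ISGs, 1 point per library, with open circles for steady state and filled circles for LPS. Open orange points (GM-TC) lie below open blue points (M-TC) in every gene shown, and the filled points of both growth factors lie closer together than the open points in all 12.

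Among CC chemokines and growth factor signalling genes the interaction was mostly negative. For CC chemokines 7 of 13 were DEGs higher in GM-BMDMs at steady state and 3 after LPS, and the interaction was negative for 11 of 13 beside 23.3% of all genes tested. Ccl2 went from 3.91 at steady state to -0.06 after LPS (-3.97 ± 0.15), Ccl3 from 1.58 to -1.08 (-2.66 ± 0.09) and Ccl7 from 3.29 to -1.39 (-4.68 ± 0.26). Cish went from 7.89 to 1.91 (-5.98 ± 0.19), with 72.4 and 76.3 CPM in GM-TC and 0.399 and 0.225 CPM in M-TC. The gap thus narrowed as the M-BMDM level caught up. Socs3 turned from 3.17 to -1.06 (-4.23 ± 0.12), Mmp13 from 4.97 to -1.35 (-6.32 ± 0.11), and Il1rn shrank from 4.75 to 1.82 (-2.93 ± 0.09). Within the growth factor list 15 of 19 genes had a negative interaction and none a positive one. Adamts4, Rgs16 and Sele had the largest negative interactions among genes at 10 CPM or more, but all 3 were at 0 counts in both M-TC libraries, so the fitted sizes depend on the prior count. Adamts4 was at 12.05 and 12.2 CPM in GM-TC-LPS and 53.5 and 56.4 CPM in M-TC-LPS. For MHC class II the interaction passed the threshold in 1 of 11 genes, Ciita (1.58 ± 0.15), and was -0.07 ± 0.10 for H2-Aa and -0.24 ± 0.10 for Cd74. Mitosis genes, with 26 of 34 DEGs lower at steady state, had 7 positive and 9 negative interactions.

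The same growth factor contrast after LPS on noTC dishes, again in other libraries, gave similar numbers. Comparing GM-noTC-LPS with M-noTC-LPS, 1797 genes (14.4%) were DEGs higher and 1266 (10.1%) lower, and 66.1% passed the adjusted threshold at any fold. Of the DEGs on TC dishes, 1468 higher genes were shared (78.7% of the TC list and 81.7% of the noTC list) and 965 lower genes (76.7% and 76.2%), with 1 gene opposite in each direction. The interaction with the dish passed for 464 genes in the positive and 860 in the negative direction (10.6%). It turned to 962 and 471 with scaling by total count only, which moved the median interaction from 0.00 to 0.10. Without GM-TC-LPS replicate 1 the counts were 281 and 561, without M-TC-LPS replicate 1 the positive count was 290, and without the 4 steady state TC libraries it was 699.

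**Figure D5:**
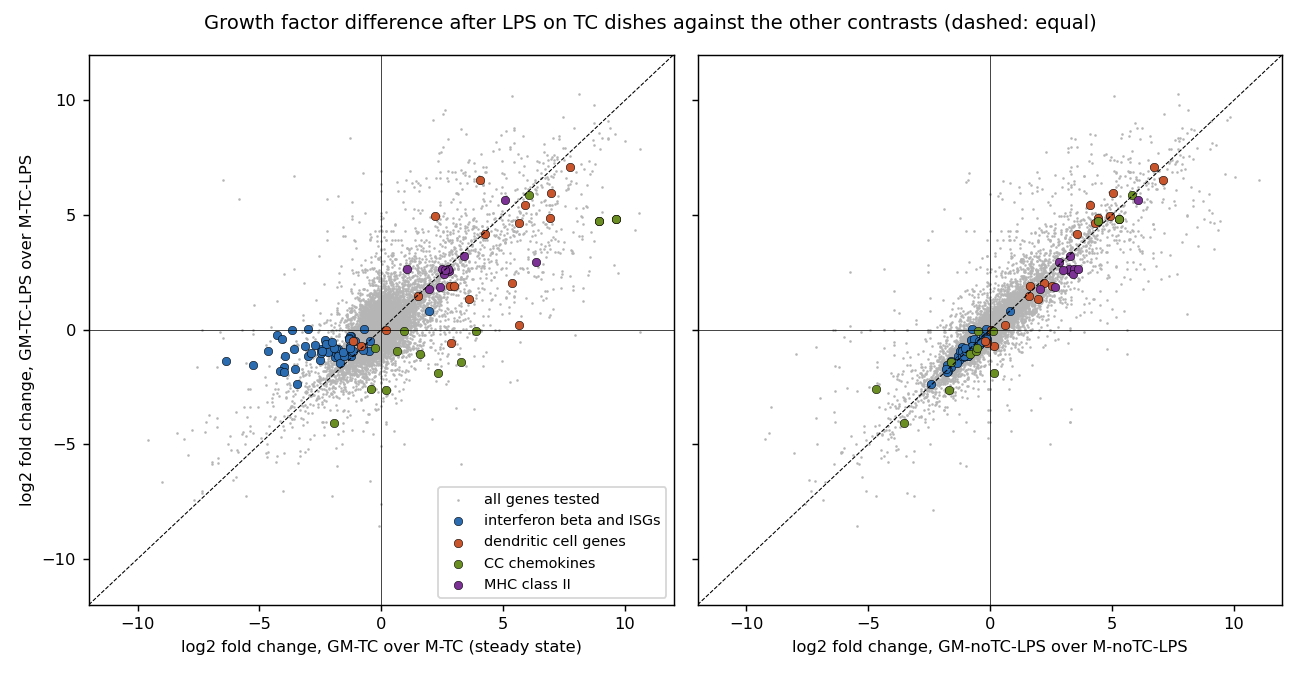
Log2 fold change of GM-TC-LPS over M-TC-LPS (vertical axis) against that at steady state on TC dishes (left) and after LPS on noTC dishes (right), 1 point per gene, with lists in colour and the dashed line at equality. ISGs leave the dashed line towards 0 on the left and lie along it on the right.

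Arg1 had the largest negative interaction with the dish among genes at 10 CPM or more (-3.13 ± 0.78, adjusted p = 0.011 with edgeR), at 207 and 165 CPM in GM-noTC-LPS and 0.770 and 0.599 CPM in M-noTC-LPS. It lost its call without M-TC-LPS replicate 1 (-2.93) and with the shared low level subtracted (-3.61, adjusted p = 0.051 with edgeR). The neutrophil surface gene Cd177 differed by 3.54 on TC and 6.12 on noTC dishes (-2.58 ± 0.52), and the apolipoprotein gene Apoc2 by -1.24 and 0.84 (-2.08 ± 0.18). For Apoc2 the groups thus changed order with the dish, since M-TC-LPS held 62.8 and 62.3 CPM and M-noTC-LPS 15.5 and 21.2 CPM. On the positive side, the basement membrane collagen gene Col4a1 differed by -2.49 and -4.95 (2.46 ± 0.39), the chromatin gene Hmga2 by -4.97 and -7.08 (2.12 ± 0.28) and the ectodysplasin receptor gene Eda2r by 5.96 and 3.93 (2.03 ± 0.47, lost without M-TC-LPS replicate 1 at an adjusted p of 0.087 with edgeR). M-CSF macrophage genes had 13 of 29 members with a negative interaction beside 6.87% of all genes tested, with log2 fold changes of -3.05 on TC and -1.42 on noTC dishes for Apoe and of -2.16 and -0.92 for C1qa. MHC class II genes were higher in GM-BMDMs on both dishes, 11 of 11 DEGs each, and the interaction was negative for 5 of 11, with H2-Eb1 at 2.65 on TC and 3.62 on noTC dishes. DNA replication genes had a positive interaction in 15 of 34 and mitosis genes in 8 of 34, beside 3.71% of all genes tested, with none negative. ISGs had 1 positive and 2 negative among 56.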

How the data were processed

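RNA was captured with oligo(dT), made into NEBNext Ultra libraries and sequenced on an Illumina NovaSeq instrument. The authors deposited expected counts per gene, estimated with RSEM and not normalised. The submitters' processing notes name fastp 0.18.0, Bowtie2 2.2.8, HISAT2, StringTie 1.3.1, RSEM, DESeq2 and edgeR, and the genome build, the annotation and the strand setting of the counting were not given in the sources used here, so reads of a gene and of an overlapping antisense gene cannot be told apart.

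From there, expected counts were rounded to whole numbers. Genes were filtered with filterByExpr (12514 of 22287 tested), scaled by TMM and fitted over all 16 libraries in 8 groups with edgeR 4.0.16 quasi-likelihood tests (R 4.3.3), so all groups share the estimate of spread. The 4 libraries held 22129711 to 26916535 counts, and 3 counts correspond to 0.14 to 0.17 CPM. P-values were adjusted by the Benjamini-Hochberg method over all genes tested, and the differences between contrasts were tested as interaction terms. Where a group had at most 3 counts per library, the ratio of normalised counts is given with its exact 95% interval. At 0 counts, the bound against 3 counts over the 2 libraries of that group together is given. Both cover counting error only. Replicate pairs differed by more than sampling noise, with a chi-square per gene of 3.01 in GM-TC-LPS and 5.28 in M-TC-LPS. For a symbol on several rows the most abundant one was used. Promoters and motif letters were read from RefSeq windows on GRCm38.p6, without chromosome 18. DESeq2 1.42.0, other scalings, filters, fold thresholds, a replicate block and leaving out each library were tried as alternatives.

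Named genes were the 10 most changed DEGs of each direction by log2 fold change (10 CPM or more, groups not overlapping), the 10 of each direction that differed most in mean CPM, the anchor genes and up to 3 called members per direction of each list, and the 3 largest of either sign for each interaction at 10 CPM or more, without symbols of predicted genes. Lists, members and motifs were chosen with earlier results of these data known. Only the comparison of GM-TC-LPS with M-TC-LPS, with edgeR and DESeq2, was tested on simulated counts. The interaction terms, count ratios, bounds, list medians and motif shares were not.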

Additional observations from a re-analysis of the deposited data

Results flagged for a closer look

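Each item below was picked because the GM-CSF against M-CSF difference after LPS on TC dishes differed from the same difference in another condition, by an interaction term in edgeR with p-values adjusted over all genes tested. Against steady state TC dishes, 2225 genes had a positive and 2920 a negative difference of log2 fold changes. Against noTC dishes after LPS, 464 were positive and 860 negative. No group held 4 or more samples, so no single library was tested for standing apart.

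The ISGs Ifit3b, Cxcl10 and Ifit1 had the largest positive differences from steady state among genes at 10 CPM or more, at 5.03 (adjusted p = 1.3e-12), 4.07 (2.4e-13) and 4.03 (6.5e-19) on the log2 scale with edgeR. The adhesion gene Sele, the aggrecanase gene Adamts4 and the G-protein regulator gene Rgs16 had the largest negative ones, at -9.12 (adjusted p = 0.0047), -7.77 (0.00014) and -7.58 (0.00012) with edgeR. These last 3 genes had 0 counts in both M-TC libraries, so their sizes depend on the prior count and are no bounds.

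Between dishes, the negative differences with edgeR were -3.13 for Arg1 (adjusted p = 0.011), -2.58 for Cd177 (0.0021) and -2.08 for Apoc2 (1.4e-07). The positive ones were 2.46 for Col4a1 (adjusted p = 0.00018), 2.12 for Hmga2 (1.9e-05) and 2.03 for Eda2r (0.0065) with edgeR. Without M-TC-LPS replicate 1, Arg1 (-2.93) and Eda2r (1.65) no longer passed. Arg1 also lost its call with the shared low level subtracted (-3.61, adjusted p = 0.051 with edgeR).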

How the results depend on the processing

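The 1866 DEGs higher and 1258 lower in GM-TC-LPS stayed within 1.5 times under every alternative but the fold threshold, which at above 1.5-fold gave 2808 and 2293. Unadjusted p-values gave 1920 and 1277. Leaving out 1 of the 4 libraries, where the lone sample is assumed to vary like the other groups, gave 1778 to 1840 DEGs higher and 1210 to 1241 lower. Of 671 single genes examined under the alternatives, none reversed with a call, and 55 lost their call under the adjusted p in at least 1 setting, among them 19 DEGs. With a replicate block 1859 and 1254 DEGs were called. Deviations of same-numbered libraries had a correlation of r = -0.064 over 12514 genes, which are not independent. The labels do not say whether equal numbers mark a shared mouse or day. This correlation cannot settle it, and the libraries were treated as unpaired.

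The interaction counts depended more on the processing, and the cause was not tested. Scaling by total count gave 4899 positive and 1307 negative differences from steady state, and 962 and 471 between dishes. Between dishes the positive count was 302 with DESeq2 on all 16 libraries and 699 without the 4 steady state TC libraries, an alternative added after seeing the data, and leaving out 1 library gave 281 to 429 positive and 561 to 730 negative. The signs of the small list medians for growth factor signalling (0.02 with total count scaling) and integrins (-0.04 with DESeq2 size factors) turned. Depth limits genes at or below 0.14 to 0.17 CPM, where 3 counts or fewer stand behind a value.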
